A study of Mus musculus with 10 samples.

Results

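Matrix metalloproteinases (MMP) are secreted or membrane-bound zinc proteases that cleave collagens, gelatin, elastin and other matrix proteins, and that also release growth factors and cytokines held in the matrix. They are made as inactive proenzymes and are activated by proteolysis, for example by plasmin, furin or one another, and tissue inhibitors of metalloproteinases (TIMP) bind and block the active enzymes. In tumors, tumor-associated macrophages (TAM) and neutrophil-lineage cells are known sources of several of these enzymes, Mmp9 above all. Described here are 10 genes of the family, 7 proteases (Mmp2, Mmp9, Mmp12, Mmp13, Mmp14, Mmp19 and Mmp25) and 3 inhibitors (Timp1, Timp2 and Timp3), of 55421 genes in the deposited count table. They were chosen by name, and their rows were found by matching the Ensembl identifiers to gene symbols of the mouse genome build GRCm38.

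The samples were myeloid cells from mice with subcutaneous tumors of MC17-51, an established mouse fibrosarcoma cell line, profiled by RNA-seq at day 15 after implantation. The mice were 8 to 12 weeks old when tumors were implanted. In all of them Ptpn11, the gene of the phosphatase SHP-2, was floxed. Shp2f/f mice had no Cre, and Shp2f/fLysMcre mice also carried Cre recombinase driven by the lysozyme M promoter, which is active in macrophages and granulocytes. TAM were sorted from tumors as live CD45+ CD11b+ F4/80+ Ly6G- cells (3 samples per genotype). Myeloid-derived suppressor cells (MDSC) were isolated with magnetic beads from spleens, as Gr-1-high Ly6G+ Ly6C- cells of the granulocytic type (2 samples per genotype). Per the methods, TAM and MDSC came from the same animals, but neither the labels nor the methods say which samples shared an animal or whether animals were pooled. P-values therefore measure the spread between these samples, part of which may be technical. Sex-linked transcripts, given below, showed that each Shp2f/fLysMcre library held transcripts of both sexes. The Shp2f/f TAM libraries did so too, with fewer Xist reads.

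The 10 libraries held 28844660 to 38222998 assigned reads. Expression is given as CPM, read counts scaled to a fixed library size and corrected with TMM factors (the trimmed mean of M-values method of edgeR), and as CPM per kilobase (kb) of exon where genes are compared with each other. Ptpn11 was at 123 to 126 CPM in Shp2f/f TAM and at 50.2 to 53.5 CPM in Shp2f/fLysMcre TAM. In MDSC it was at 113 and 99.4 CPM in Shp2f/f and at 95.3 and 78.7 CPM in Shp2f/fLysMcre samples. The gene was lower in TAM (log2 fold change -1.24, edgeR quasi-likelihood adjusted p = 2.96e-09) and did not pass the test in MDSC (-0.29, edgeR adjusted p = 0.361). Reads from exons outside the floxed segment still count toward Ptpn11 in both cell types. The effect in TAM minus that in MDSC was -0.92 (edgeR quasi-likelihood adjusted p = 0.00045). By these tests the counts show a fall of Ptpn11 in TAM and do not show one in MDSC. Lyz2, whose locus carries the Cre, fell from at least 3496 CPM to at most 46.5 CPM in both cell types. Loss of SHP-2, the fall of Lyz2 and the presence of Cre cannot be told apart in the genotype effects below.

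By summed markers, neutrophil genes were higher in MDSC and macrophage genes higher in TAM, with exceptions among single genes. In Shp2f/f MDSC the neutrophil sum came mostly from S100a8 and S100a9, with means of 3338 and 3218 CPM. Adgre1, the gene of F4/80, had a mean of 381 CPM in Shp2f/f MDSC and 659 CPM in Shp2f/f TAM. The sums thus do not show how far the MDSC libraries held granulocytic cells alone. The sum of 10 neutrophil markers was 8378 to 29665 CPM in MDSC and 151 to 232 CPM in TAM, and the sum of 10 macrophage markers was 9674 to 14825 CPM in TAM and 1826 to 2567 CPM in MDSC. Csf1r, the receptor of macrophage colony-stimulating factor, did not differ by the test between the cell types in Shp2f/f mice (1450 to 1509 CPM in TAM, 1423 and 1445 CPM in MDSC, edgeR adjusted p = 0.553), while the other 9 macrophage markers were called higher in TAM. Ly6g, which marks the cells of the MDSC label, was at 11.9 and 8.94 CPM in Shp2f/f and at 33.4 and 29.4 CPM in Shp2f/fLysMcre MDSC, and at no more than 0.288 CPM in TAM. Several marker sums moved with genotype or stood apart in single libraries. The macrophage sum in TAM was 9674 to 9990 CPM in Shp2f/f and 14006 to 14825 CPM in Shp2f/fLysMcre samples, and the neutrophil sum in MDSC was 8378 and 8540 CPM against 24243 and 29665 CPM. The macrophage sum in MDSC, mostly from Csf1r, was 2470 and 2567 CPM against 1826 and 2082 CPM. One library, MDSC Shp2f/fLysMcre replicate 2, held 654.8 CPM of 14 mesenchymal markers (fibroblast and fibrosarcoma genes such as Col1a1) against 16.2 to 35.3 CPM in the other 3 MDSC libraries. In TAM this sum was 380.0 to 393 CPM in Shp2f/f and 343 to 357 CPM in Shp2f/fLysMcre. In MDSC the erythroid sum was 196 and 225 CPM in Shp2f/f against 375 and 521 CPM in Shp2f/fLysMcre samples, and the B cell sum 26.7 and 35.5 against 15.9 and 17.01 CPM. In TAM the endothelial sum was 73.2 to 76.6 CPM in Shp2f/f and 114 to 121 CPM in Shp2f/fLysMcre samples. The T cell sum in TAM was 6.67 to 7.91 against 3.19 to 3.94 CPM, the B cell sum 4.12 to 4.58 against 10.1 to 11.3 CPM, and the erythroid sum 4.69 to 6.33 against 7.23 to 11.4 CPM. Islet hormone transcripts summed to 846 to 6667 CPM in Shp2f/f TAM and to 6.06 to 79.5 CPM in Shp2f/fLysMcre TAM. Xist, expressed in female cells, had 1 read in each Shp2f/f MDSC library and 4759 and 4875 reads in the Shp2f/fLysMcre ones. In TAM it had 185 to 665 against 6465 to 10395 reads. Ddx3y, a gene of the Y chromosome, was at 54.9 and 50.7 CPM in Shp2f/f and at 28.0 and 22.0 CPM in Shp2f/fLysMcre MDSC. In TAM Ddx3y was at 82.1 to 87.0 against 38.1 to 44.4 CPM. The share of female cells thus moved with genotype and cannot be told apart from it. Every Shp2f/fLysMcre library held transcripts of both sexes, so it did not hold the cells of a single mouse alone. The Shp2f/f TAM libraries also held both, with only 185 to 665 reads of Xist. The part of these differences in the results below was not tested, except where values are given without a library.

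Promoter windows in the RefSeq table for GRCm38.p6 were found for 7 of the 10 members (8 windows, since Mmp12 has 2 starts). No window was found for Mmp2, Mmp9 and Mmp19. Each window ran from 100 bases before the annotated start to 30 bases after it. The AP-1 motif was searched as TGANTCA on both strands. The TATA box was searched as TATAAA on both strands. The GC box was searched as GGGCGG on both strands. The windows of Mmp12 (second start, chr9:7347274-7347403, plus strand), Mmp13 (chr9:7272414-7272543, plus strand) and Mmp14 (chr14:54431498-54431627, plus strand) are shown as examples of windows with different motifs, AP-1 and TATAAA in the first pair and GC boxes in the last. Capitals mark the motif matches, which do not overlap each other.
Mmp12: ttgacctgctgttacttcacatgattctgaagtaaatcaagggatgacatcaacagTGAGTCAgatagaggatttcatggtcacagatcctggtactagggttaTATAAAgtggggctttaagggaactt
Mmp13: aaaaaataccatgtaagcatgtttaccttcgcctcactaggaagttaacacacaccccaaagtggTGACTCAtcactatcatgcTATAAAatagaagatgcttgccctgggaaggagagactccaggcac
Mmp14: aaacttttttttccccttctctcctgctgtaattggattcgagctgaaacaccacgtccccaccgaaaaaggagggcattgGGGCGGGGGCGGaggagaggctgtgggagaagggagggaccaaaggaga
An AP-1 match stood in 2 of the 7 members with a window, Mmp12 and Mmp13, and in 3.49% of 32851 promoter windows of the same length. The same 2 members held the TATAAA match, which stood in 6.38% of all windows. The GC box was found in the other 5 members (Mmp14, Mmp25, Timp1, Timp2 and Timp3) and in 27.5% of all windows. The first Mmp12 window (chr9:7344297-7344426, plus strand), at the annotated gene start, held none of the 3 motifs, and in the second one the TATAAA match lay after the start. Mmp25 and Timp2, which were called higher in TAM, held GC boxes alone. So did Mmp14 and Timp1, which were not called, and Timp3, which was called lower. These are letter matches and not measured binding sites.

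Of the 10 members, 6 were higher (Mmp2, Mmp12, Mmp13, Mmp19, Mmp25 and Timp2) and 2 lower (Mmp9 and Timp3) in Shp2f/fLysMcre TAM than in Shp2f/f TAM, and Mmp14 and Timp1 did not pass the test (edgeR quasi-likelihood, adjusted p under 0.05 over all genes tested). Among all 14446 genes tested in TAM, 50.2% were called, 23.9% as higher and 26.3% as lower, so that a call by itself sets no member apart. In these bulk samples, fewer cells that express a gene and less transcript per cell cannot be told apart. The values of the genotypes did not overlap for any of the 10 members, which held for 58.2% of all genes tested. The median log2 fold change was 0.25 over the members and -0.01 over all genes tested. The 3 samples of a genotype lay close together in TAM, with a biological coefficient of variation of 0.0595. With scaling by total counts in place of TMM, 2342 genes were called higher and 5227 lower, against 3452 and 3805, and the median of all genes moved to -0.11.

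**Figure D1:**
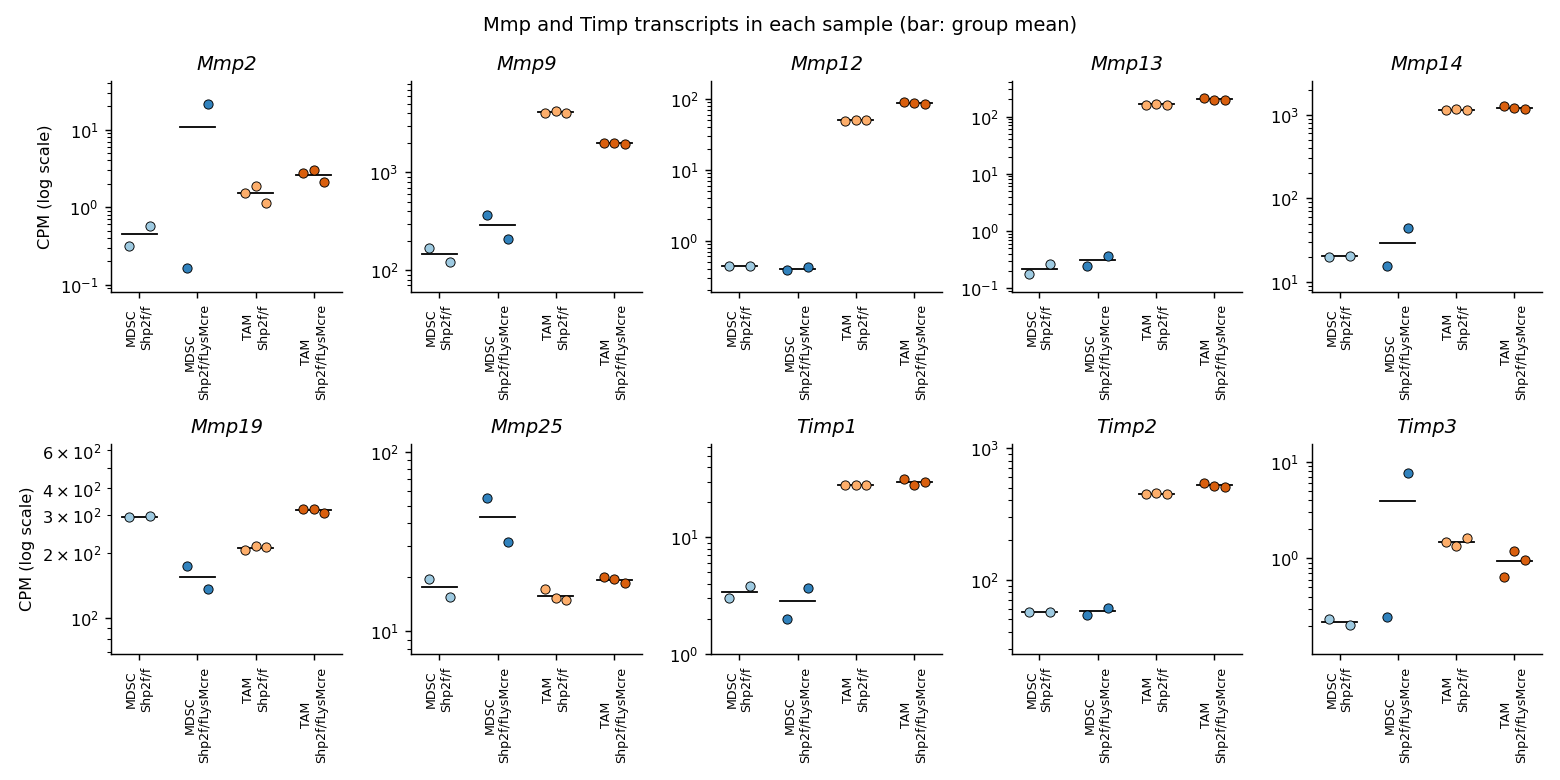
CPM (log axis) of each member in every sample by group, 1 point per sample, with a bar at the group mean. Mmp9 sits at 4041 to 4274 CPM in Shp2f/f TAM and at 1932 to 2013 CPM in Shp2f/fLysMcre TAM, and Mmp2 and Timp3 stand high in 1 MDSC library.

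The gelatinases Mmp9 and Mmp2 degrade denatured collagen and the type IV collagen of basement membranes. Mmp9 (ENSMUSG00000017737, chr2:164940780-164955850, plus strand) was at 4041, 4274 and 4047 CPM in Shp2f/f TAM and at 2002, 2013 and 1932 CPM in Shp2f/fLysMcre TAM. All 3 Shp2f/fLysMcre samples lay below all 3 Shp2f/f samples, by far more than the spread within either genotype. The difference was 2.08-fold (log2 fold change -1.06, SE 0.0311, edgeR adjusted p = 2.56e-09), the largest absolute change among the 10 members. Its raw counts were 134414 to 163330 and 52923 to 69054, so that counting error was small beside it. It passed the test under all alternatives run in TAM, with log2 fold changes of -1.15 to -1.02.

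Mmp2 (ENSMUSG00000031740, chr8:92827291-92853420, plus strand) was a low transcript in TAM, with 41 to 72 reads in Shp2f/f and 57 to 102 reads in Shp2f/fLysMcre libraries. Its levels were 1.53, 1.88 and 1.14 CPM in Shp2f/f TAM and 2.78, 2.97 and 2.08 CPM in Shp2f/fLysMcre TAM. The gelatinases thus moved in opposite directions in TAM, Mmp2 being 1.72-fold higher (log2 fold change 0.78, SE 0.219, edgeR adjusted p = 0.0115). Without Shp2f/fLysMcre replicate 2 the Mmp2 call was lost (0.68, edgeR adjusted p = 0.0577), and over the 13 alternatives its edgeR or DESeq2 adjusted p ran from 0.00213 to 0.613, the latter in 1 fit of all 10 samples.

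Mmp12, the macrophage elastase, and Mmp13, a collagenase that cleaves fibrillar collagen, lie near each other on chromosome 9. Mmp12 (ENSMUSG00000049723, chr9:7344381-7369499, plus strand) was at 49.4, 51.2 and 50.1 CPM in Shp2f/f TAM and at 90.02, 86.9 and 86.1 CPM in Shp2f/fLysMcre TAM. The gap between the genotypes was many times the spread within them, and Mmp12 was 1.75-fold higher (log2 fold change 0.80, SE 0.0387, edgeR adjusted p = 5.50e-08), the largest rise among the members. All 10 macrophage markers were called higher in the same TAM (median log2 fold change 0.65), and their part in this rise was not tested. Mmp13 (ENSMUSG00000050578, chr9:7272514-7283331, plus strand) was at 159, 167 and 163 CPM in Shp2f/f and at 209, 199 and 197 CPM in Shp2f/fLysMcre TAM. It was 1.24-fold higher (log2 fold change 0.31, SE 0.0396, edgeR adjusted p = 6.46e-05). The AP-1 and TATAAA matches printed above are in the Mmp13 window and in the second of the 2 Mmp12 windows. On the exons of Mmp12, 2.17% of the length is shared with Mmp1b on the opposite strand, which had no reads in TAM.

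Mmp19, expressed in myeloid cells and known to act on basement membrane proteins, rose in TAM. Mmp19 (ENSMUSG00000025355, chr10:128790910-128800824, plus strand) was at 207, 216 and 214 CPM in Shp2f/f and at 322, 322 and 307 CPM in Shp2f/fLysMcre TAM. The groups were well apart, and the gene was 1.497-fold higher (log2 fold change 0.58, SE 0.0389, edgeR adjusted p = 5.03e-07). The macrophage marker sum in the same libraries was 9674 to 9990 CPM in Shp2f/f and 14006 to 14825 CPM in Shp2f/fLysMcre TAM. Its part in the Mmp19 difference was not tested. Part of its exon length is shared with genes on the opposite strand, 22.3% with Tmem198b and 6.001% with the antisense gene Gm47093. The strand setting used in counting was not stated, so reads from these neighbors may be included.

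The membrane-bound proteases had the smallest log2 fold changes of the 7 proteases in TAM. Mmp14, the membrane-type enzyme that activates pro-Mmp2 at the cell surface (ENSMUSG00000000957, chr14:54431612-54445364, plus strand), was at 1141, 1159 and 1131 CPM in Shp2f/f and at 1264, 1194 and 1171 CPM in Shp2f/fLysMcre TAM. The values did not overlap, and the difference missed the threshold (log2 fold change 0.08, SE 0.0359, edgeR adjusted p = 0.0853), and with scaling by total counts it was -0.02. Mmp25, a protease anchored to the membrane of leukocytes and abundant in neutrophils (ENSMUSG00000023903, chr17:23628311-23645277, minus strand), was at 17.2, 15.4 and 14.9 CPM in Shp2f/f and at 20.0, 19.6 and 18.6 CPM in Shp2f/fLysMcre TAM. It was 1.23-fold higher (log2 fold change 0.30, SE 0.0648, edgeR adjusted p = 0.00266). The sum of neutrophil markers in the same libraries was 151 to 165 CPM in Shp2f/f and 213 to 232 CPM in Shp2f/fLysMcre TAM, and its part in the Mmp25 difference was not tested. With 1 fit of all 10 samples Mmp25 lost its call (edgeR adjusted p = 0.206), and in the other 12 alternatives it kept it.

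Among the inhibitors, Timp2 was the main transcript in TAM. Timp2, which blocks active MMP and also takes part in the activation of pro-Mmp2 by Mmp14 (ENSMUSG00000017466, chr11:118301069-118355740, minus strand), was at 447, 453 and 444 CPM in Shp2f/f and at 537, 516 and 503 CPM in Shp2f/fLysMcre TAM. It was 1.16-fold higher (log2 fold change 0.21, SE 0.0379, edgeR adjusted p = 0.000762). The samples of each genotype were close together, and every Shp2f/fLysMcre sample lay above every Shp2f/f sample.

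Timp1, an inducible inhibitor that binds pro-Mmp9 (ENSMUSG00000001131, chrX:20870166-20874735, plus strand), was at 28.2, 27.9 and 28.2 CPM in Shp2f/f and at 31.7, 28.3 and 29.9 CPM in Shp2f/fLysMcre TAM. It did not pass the test (log2 fold change 0.09, SE 0.0510, edgeR adjusted p = 0.160), and with scaling by total counts it was -0.01. The gene is X-linked, and the Xist counts above differed between the genotypes.

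Timp3, an inhibitor that is held in the matrix (ENSMUSG00000020044, chr10:86300372-86349506, plus strand), had only 49 to 58 reads in Shp2f/f and 20 to 41 reads in Shp2f/fLysMcre TAM libraries. Its levels were 1.47, 1.33 and 1.61 CPM against 0.638, 1.20 and 0.949 CPM. The fall was 1.58-fold and close to the threshold (log2 fold change -0.66, SE 0.250, edgeR adjusted p = 0.0469), and 5 of the 6 fits that left out a TAM sample lost the call, all but the one without Shp2f/fLysMcre replicate 2. The gene lies inside Syn3 on the opposite strand, and 21.3% of its exon length is shared with it.

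**Figure D2:**
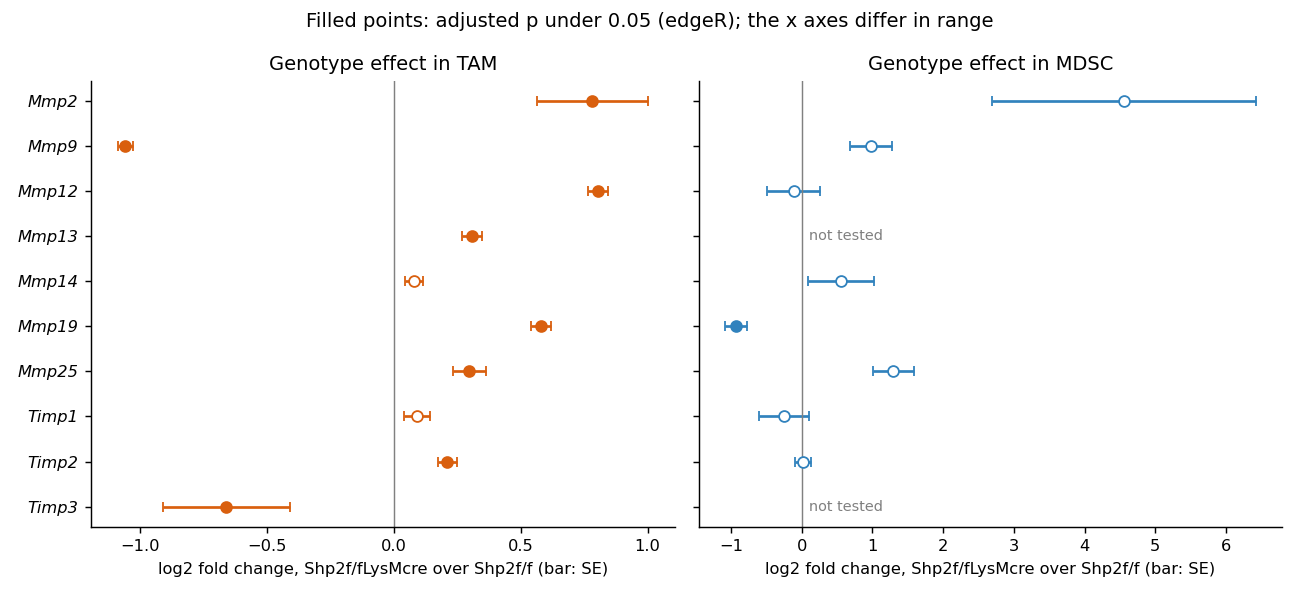
log2 fold change of each member (Shp2f/fLysMcre over Shp2f/f) with its SE in TAM and in MDSC. Filled points have an edgeR adjusted p under 0.05, 8 in TAM and 1 in MDSC, where Mmp13 and Timp3 were not tested. The x axes differ in range, and the widest bar is that of Mmp2 in MDSC.

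Per kilobase of exon, Mmp9 was the most abundant of the 10 transcripts in TAM of both genotypes, with a mean of 1164 ± 37.6 CPM per kb in Shp2f/f and 560.1 ± 12.4 CPM per kb in Shp2f/fLysMcre TAM (SD, n = 3). Mmp14 followed with 192 ± 2.41 and 203 ± 8.11 CPM per kb, and Timp2 with 115 ± 1.19 and 133 ± 4.46 CPM per kb. Mmp13 and Mmp19 overlapped in Shp2f/f TAM at 60.9 ± 1.39 and 59.99 ± 1.34 CPM per kb, whereas in Shp2f/fLysMcre TAM Mmp19 (89.8 ± 2.39) lay above Mmp13 (75.5 ± 2.45) in every sample. Below them came Timp1 (31.6 and 33.7), Mmp12 (6.94 and 12.1), Mmp25 (2.98 and 3.66), Mmp2 (0.450 and 0.774) and Timp3 (0.181 and 0.114, all in CPM per kb), and no other neighbors in this order overlapped. The order uses the union of annotated exons, which for Mmp12 and Timp3 runs to 7.24 and 8.14 kb and understates genes with long alternative exons.

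The make-up of the family in TAM differed between the genotypes, above all in its share of Mmp9. The 7 proteases summed to 1488 ± 42.1 CPM per kb in Shp2f/f and to 945 ± 23.1 CPM per kb in Shp2f/fLysMcre TAM (SD, n = 3). Mmp9 made up 78.1% to 78.6% of that sum in Shp2f/f and 58.7% to 59.8% in Shp2f/fLysMcre samples, and the share of Mmp14 was 12.7% to 13.1% in Shp2f/f and 21.1% to 22.0% in Shp2f/fLysMcre samples. Without Mmp9 the other 6 proteases summed to 323 ± 4.57 CPM per kb in Shp2f/f and to 385 ± 12.7 CPM per kb in Shp2f/fLysMcre TAM. The 3 inhibitors summed to 147 ± 0.967 and 167 ± 5.85 CPM per kb. The ratio of summed protease to summed inhibitor transcript was 9.97, 10.4 and 10.03 in Shp2f/f TAM and 5.55, 5.79 and 5.65 in Shp2f/fLysMcre TAM, a log2 difference of -0.84. These are ratios of transcripts and not of active enzyme to inhibitor. No test was made of these sums, since they are dominated by Mmp9.

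**Figure D3:**
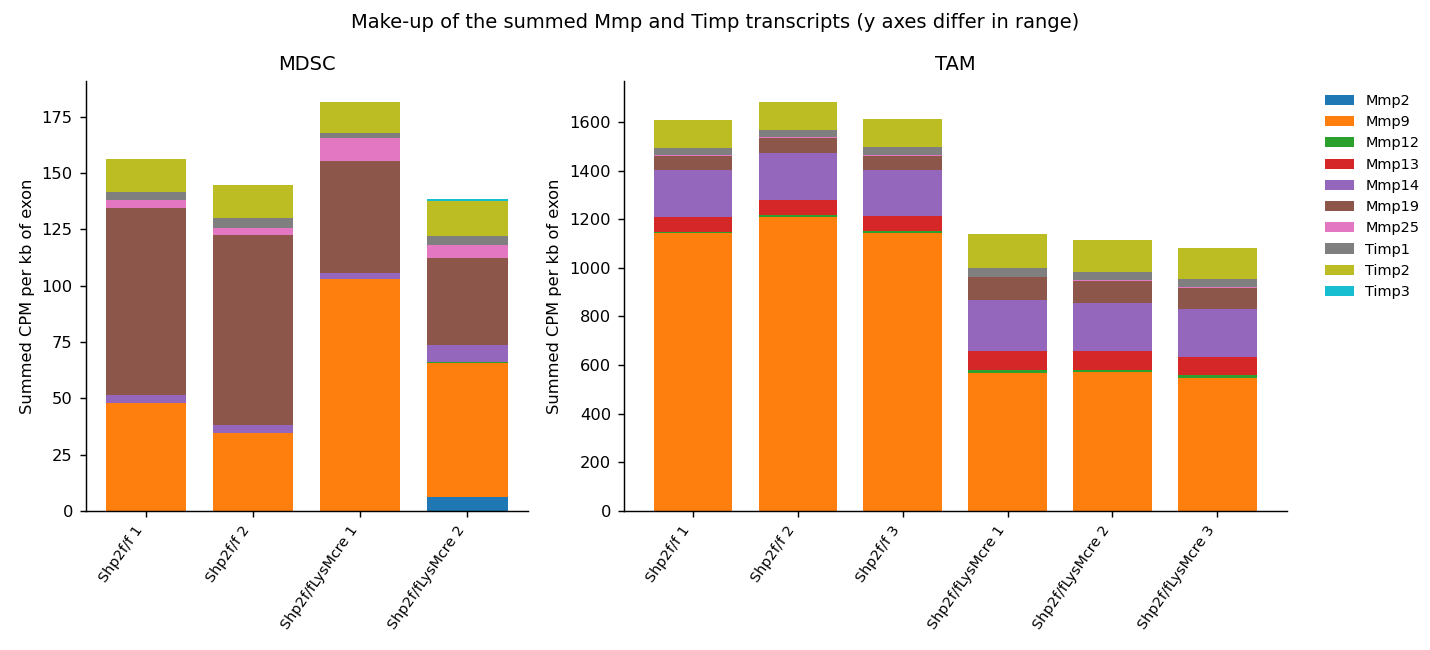
Summed CPM per kb of exon of the 10 members in each MDSC and TAM sample, stacked by gene (the y axes differ in range). Mmp9 takes 78.1% to 78.6% of the protease sum in Shp2f/f TAM and 58.7% to 59.8% in Shp2f/fLysMcre TAM, and Mmp19 is the tallest block in Shp2f/f MDSC.

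In MDSC the same genes gave a different picture. Of the 10 members, 8 had enough reads to be tested, and only Mmp19 was called, as lower in Shp2f/fLysMcre (edgeR quasi-likelihood). Among the 14806 genes tested in MDSC, 4.28% were called and 0.52% were called lower. The genotypes did not overlap for 4 of the 8 members tested, against 49.2% of all genes tested. The spread was wider here, with a biological coefficient of variation of 0.189, and each genotype had 2 samples.

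Mmp19 was at 294 and 299 CPM in Shp2f/f and at 175 and 136 CPM in Shp2f/fLysMcre MDSC. It was 1.90-fold lower (log2 fold change -0.93, SE 0.153, edgeR adjusted p = 0.0372), the opposite of its rise in TAM. The call was lost when either Shp2f/f sample was left out (edgeR adjusted p = 0.627 and 0.723, with the lone sample assumed to vary like the other group) and held when either Shp2f/fLysMcre sample was left out. It was also lost with no filter on low counts (edgeR adjusted p = 0.0902), and over the 11 alternatives the adjusted p ran from 1.64e-06 to 0.723. The macrophage marker sum in these libraries was also lower in Shp2f/fLysMcre MDSC (2470 and 2567 against 1826 and 2082 CPM), and its part was not tested.

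Mmp9, stored in neutrophil granules, was at 169 and 121 CPM in Shp2f/f and at 364 and 211 CPM in Shp2f/fLysMcre MDSC, and did not pass the test (log2 fold change 0.99, SE 0.298, edgeR adjusted p = 0.157). Mmp25 was at 19.6 and 15.6 CPM in Shp2f/f and at 55.2 and 31.2 CPM in Shp2f/fLysMcre MDSC, and did not pass either (1.30, SE 0.290, edgeR adjusted p = 0.0809). Of the 4 MDSC libraries, Shp2f/fLysMcre replicate 1 held the highest value of both genes, and the genotypes did not overlap for either. With the replicate number as a block, both genes were called as higher. Of 10 neutrophil markers, 8 were called higher in Shp2f/fLysMcre MDSC, with a median log2 fold change of 1.57 over the list. Without Shp2f/fLysMcre replicate 2, the library with mesenchymal transcripts, Mmp9 (1.32, edgeR adjusted p = 6.13e-09) and Mmp25 (1.65, edgeR adjusted p = 4.20e-11) were called as higher. Without Shp2f/fLysMcre replicate 1, the library with the highest values, Mmp9 was at 0.52 (edgeR adjusted p = 0.0988) and Mmp25 at 0.81 (edgeR adjusted p = 0.0142). Over the 11 alternatives the adjusted p ran from 6.13e-09 to 0.963 for Mmp9 and from 4.20e-11 to 0.911 for Mmp25. The fit without replicate 2 also called Mmp14 (-0.40, edgeR adjusted p = 0.0350), Timp1 (-0.78, edgeR adjusted p = 0.0280) and Mmp19 (-0.76, edgeR adjusted p = 1.01e-05) as lower, and it assumes that the lone Shp2f/fLysMcre sample varies like the Shp2f/f ones.

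Mmp2 and Timp3, genes of fibroblasts and other stromal cells, were high in that library alone. Mmp2 had 11 and 20 reads in Shp2f/f MDSC, 6 reads in Shp2f/fLysMcre replicate 1 and 853 reads in replicate 2. Timp3 had 8 and 7 reads in Shp2f/f MDSC, 9 reads in Shp2f/fLysMcre replicate 1 and 309 reads in replicate 2. Mmp14 followed the same order less steeply, at 19.7 and 20.8 CPM in Shp2f/f and at 15.4 and 44.0 CPM in Shp2f/fLysMcre MDSC. The log2 fold changes of Mmp2 (4.56, SE 1.86, edgeR adjusted p = 0.268) and Mmp14 (0.56, SE 0.462, edgeR adjusted p = 0.609) did not pass the test, and without replicate 2 they were -1.44 and -0.40. With the replicate number as a block, Mmp2 was called as higher. Mmp20, an enamel protease outside the 10 members and named here after its counts were seen, had 43 reads in that library and none in the other 9.

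**Figure D4:**
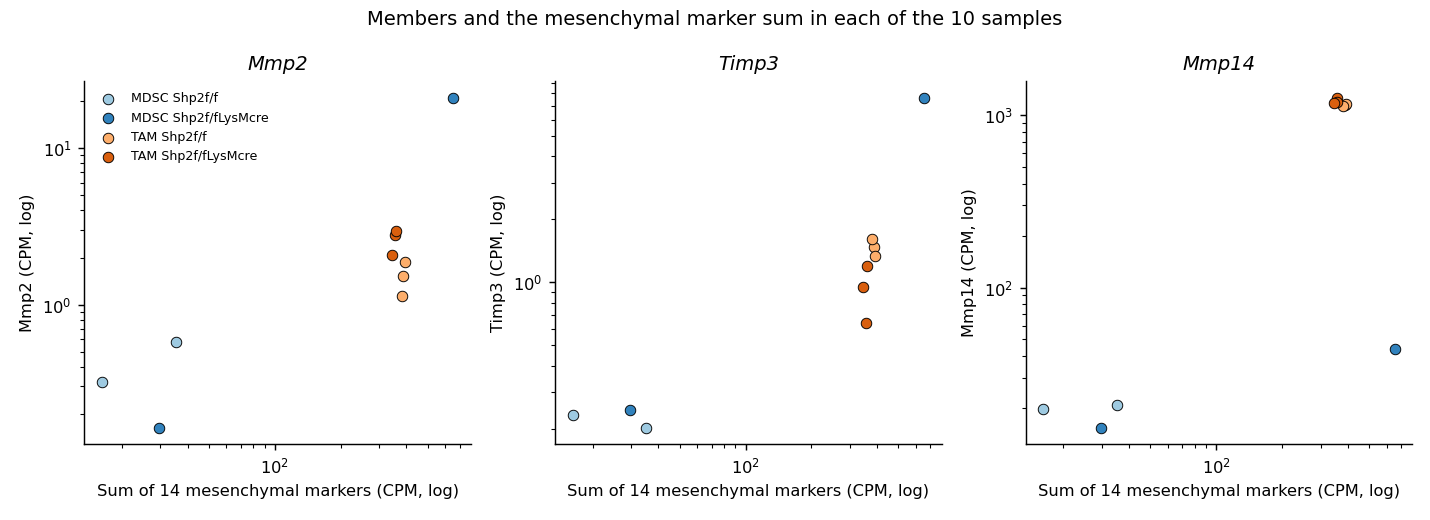
Mmp2, Timp3 and Mmp14 (CPM, log axes) against the sum of 14 mesenchymal markers in each of the 10 samples. The MDSC Shp2f/fLysMcre library with a sum of 654.8 CPM holds the highest Mmp2 (21.1 CPM) and Timp3 (7.64 CPM), while Mmp14 is above 1000 CPM in TAM alone.

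The remaining members had low counts or small log2 fold changes in MDSC. Mmp12 had 14 to 17 reads in each MDSC library (log2 fold change -0.11, edgeR adjusted p = 0.918) and Mmp13 had 6 to 15 reads and was not tested. Timp1 was at 3.03 and 3.79 CPM in Shp2f/f and at 1.99 and 3.71 CPM in Shp2f/fLysMcre MDSC (-0.25, edgeR adjusted p = 0.779). Timp2 was at 56.8 and 57.0 CPM against 54.3 and 60.7 CPM (0.02, SE 0.110, edgeR adjusted p = 0.958). The ratio of summed protease to summed inhibitor transcript per kb was 7.67 and 6.64 in Shp2f/f and 10.2 and 5.70 in Shp2f/fLysMcre MDSC, so that the genotypes overlapped. The sum leaves out the neutrophil collagenase Mmp8, which was at 776 and 735 CPM in Shp2f/f and at 969 and 653 CPM in Shp2f/fLysMcre MDSC (log2 fold change 0.10, edgeR adjusted p = 0.852).

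Whether a member responded to genotype differently in TAM and in MDSC was tested directly, as an interaction over all 10 samples. That fit used 1 spread for both cell types, with a biological coefficient of variation of 0.141. Fitted alone, TAM had 0.0595 and MDSC 0.189, so the spread of MDSC may be understated in the interaction. It was called for 5 of the 10 members, 2 as higher in TAM than in MDSC and 3 as lower, where 12.2% of 16581 genes were called higher and 12.7% lower. With scaling by total counts the median of all genes moved from -0.01 to -0.18, and 1234 genes were called higher and 3132 lower against 2030 and 2102. Mmp9 had the effect -1.06 in TAM and 0.99 in MDSC, a difference of -2.01 (SE 0.279, edgeR adjusted p = 0.000729). Mmp19 had the effect 0.58 in TAM and -0.93 in MDSC, a difference of 1.54 (SE 0.124, edgeR adjusted p = 3.37e-05). The log2 fold changes of both genes thus had opposite signs in the 2 cell types, and their interaction passed the test under all 17 alternatives run. The interaction was also called for Mmp25 (-0.97, SE 0.280, edgeR adjusted p = 0.0321), whose log2 fold change was 0.30 in TAM and 1.30 in MDSC. It was called for Mmp12 as well (0.95, edgeR adjusted p = 0.0472), which had 14 to 17 reads per MDSC library. The Mmp12 effect in MDSC alone had an SE of 0.373, so this difference is imprecise. Of 17 alternatives, Mmp12 lost its call in 12, Mmp25 in 8 and Timp3, also called, in 11. For Timp3 the value of -4.81 (SE 1.44, edgeR adjusted p = 0.0368) rested on MDSC Shp2f/fLysMcre replicate 2, and without that library it was -0.79 (edgeR adjusted p = 0.412). In that fit Mmp2 (2.26, edgeR adjusted p = 0.0234) and Mmp14 (0.51, edgeR adjusted p = 0.00215) were called in the other direction from the values with all libraries, -3.76 and -0.45.

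With SHP-2 intact, 8 of the 10 members were higher in tumor TAM than in spleen MDSC, Mmp19 was lower and Mmp25 did not pass the test (edgeR quasi-likelihood). Of 15659 genes tested in this comparison, 40.0% were called higher in TAM and 38.8% lower. Cell type, organ and the method of isolation cannot be told apart here. The largest difference was that of Mmp13 (log2 difference 9.51, edgeR adjusted p = 9.03e-12). It was at 159 to 167 CPM in TAM and at 0.175 and 0.260 CPM in MDSC. The MDSC values rest on 6 and 9 reads, so the size of this difference is imprecise. Mmp12 (6.82), Mmp14 (5.80) and Mmp9 (4.81) came next, followed by the inhibitors Timp1 (3.03), Timp2 (2.96) and Timp3 (2.72) and by Mmp2 (1.73), all as log2 differences. Mmp19 was 1.41-fold lower in TAM (log2 difference -0.50, SE 0.0443, edgeR adjusted p = 4.36e-06), and in Shp2f/f MDSC it was the most abundant of the 10 members per kilobase, at 83.9 ± 0.960 CPM per kb (SD, n = 2) against 41.0 ± 9.55 CPM per kb of Mmp9. In Shp2f/fLysMcre MDSC this order was turned, with Mmp9 at 81.2 ± 30.6 and Mmp19 at 44.0 ± 7.70 CPM per kb. Mmp25 was at 14.9 to 17.2 CPM in TAM and 15.6 and 19.6 CPM in MDSC (log2 difference -0.17, edgeR adjusted p = 0.161).

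Among the genes that activate, bind or share substrates with these proteases, the shares called in TAM are to be read against the 50.2% of all genes tested. Of 9 tested plasminogen and proprotein activators and their inhibitors, 3 were higher, 3 lower and 3 not called, with a median log2 fold change of -0.09 against -0.01 over all genes. Plau, the urokinase that turns plasminogen into plasmin, fell (-0.54, edgeR adjusted p = 7.16e-06), as did Furin, the convertase that activates pro-Mmp14 (-0.19, edgeR adjusted p = 0.00106). The convertase Pcsk7 rose slightly (0.14, edgeR adjusted p = 0.0194). Of 11 tested surface partners and inhibitors, 4 were higher, 2 lower and 5 not called (median 0.15). Cd44, the hyaluronan receptor that holds Mmp9 at the cell surface, fell (-0.40, edgeR adjusted p = 1.24e-05). Lrp1, the endocytic receptor that clears MMP and TIMP complexes, rose (0.21, edgeR adjusted p = 0.000904), as did Itgb1 (0.21) and Emb (0.27), an integrin chain and an immunoglobulin-family membrane protein.

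Other protease families were included for context. Of 13 tested ADAM and ADAMTS proteases, 4 were higher, 2 lower and 7 not called (median 0.12), near the 23.9% and 26.3% of all genes called higher and lower. Adam9 (0.47), Adam8 (0.29) and Adam15 (0.23), membrane-bound sheddases, were among those that rose. Of 12 tested genes of the list of cysteine cathepsins, which includes the cystatins Cst3 and Cstb, 7 were higher, 2 lower and 3 not called (median 0.41). The lysosomal proteases Ctsh (0.72, edgeR adjusted p = 5.03e-07), Ctsb (0.67, edgeR adjusted p = 1.09e-08) and Ctss (0.55, edgeR adjusted p = 1.98e-06) rose, and Ctsk, the collagen-cleaving cathepsin of osteoclasts, fell (-1.37, edgeR adjusted p = 5.92e-09). All 10 macrophage markers were called higher in the same TAM (median 0.65), and their part in the cathepsin values was not tested.

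Of 15 tested matrix substrates, 3 were higher, 5 lower and 7 not called (median -0.004). Spp1, the secreted phosphoprotein osteopontin, rose (0.79, edgeR adjusted p = 6.54e-08), and Vcan, the proteoglycan versican, rose less (0.15, edgeR adjusted p = 0.00809). Hspg2 (-0.65), Col6a1 (-0.43) and Lamb1 (-0.33), which encode perlecan, a collagen VI chain and a laminin chain, fell. Some of these are also mesenchymal markers, whose sum was 380.0 to 393 CPM in Shp2f/f and 343 to 357 CPM in Shp2f/fLysMcre TAM. Among 16 further listed Mmp and Timp genes outside the 10 members, 5 had enough reads in TAM, and of these Mmp10 alone, the stromelysin also called stromelysin-2, was called higher (1.06, edgeR adjusted p = 0.00125, named after its values were seen), at 25 to 33 reads in Shp2f/f and 47 to 53 reads in Shp2f/fLysMcre libraries. Mmp8, the neutrophil collagenase, was in neither set and is named after its values were seen. It was at 37.5 to 41.6 CPM in Shp2f/f and at 74.4 to 76.7 CPM in Shp2f/fLysMcre TAM, 1.93-fold higher (log2 fold change 0.95, SE 0.0474, edgeR adjusted p = 7.08e-08), beside the higher neutrophil marker sum given above.

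**Figure D5:**
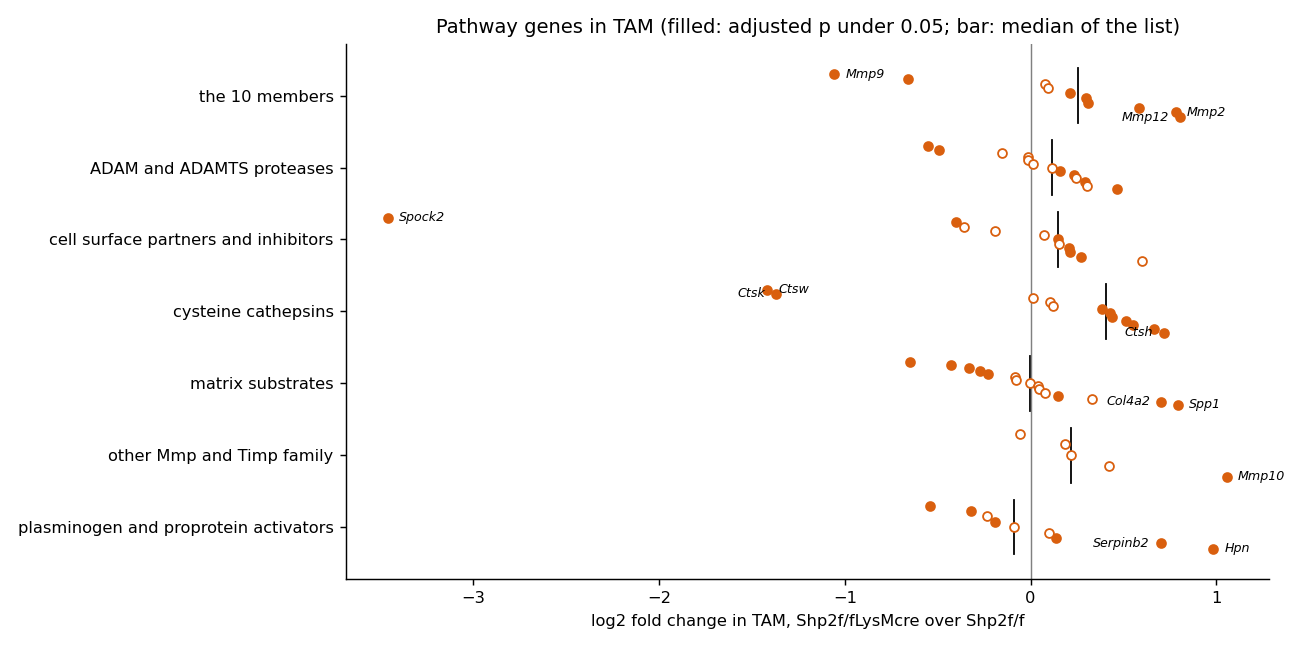
log2 fold change in TAM (Shp2f/fLysMcre over Shp2f/f) of the 10 members and of the tested genes of 6 lists, 1 point per gene, filled where the edgeR adjusted p is under 0.05, with a bar at the median of each list. Cathepsins have the highest median (0.41), with Ctsk at -1.37 on the other side, and Mmp9 is the lowest of the members at -1.06.

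In MDSC 5 genes of these lists were called, all as higher, where 3.76% of all genes were called higher, and they are named here after their values were seen. They were 3 of 11 tested surface partners and inhibitors, 1 of 8 tested plasminogen and proprotein activators and their inhibitors, and 1 of 4 tested other Mmp and Timp genes. None of the tested 10 ADAM and ADAMTS proteases, 12 cathepsins or 13 matrix substrates passed the test with edgeR, where 2859 of 14806 genes had an unadjusted p under 0.05. Among the surface partners, Lcn2, the granule protein that binds Mmp9 (1.19, edgeR adjusted p = 0.0264), and Cd63, a tetraspanin that binds Timp1 (2.08, edgeR adjusted p = 0.0183), were higher in Shp2f/fLysMcre MDSC. Reck, a membrane-anchored inhibitor of MMP, was higher as well (1.77, edgeR adjusted p = 0.0372), as were the membrane-type protease Mmp17 (2.29, edgeR adjusted p = 0.0422) and Serpine2, an inhibitor of plasminogen activators and thrombin (2.79, edgeR adjusted p = 0.0179). Mmp17 had only 7 and 10 reads in Shp2f/f and 52 and 41 reads in Shp2f/fLysMcre MDSC.

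Across the 10 samples, the patterns of the members followed the step between the cell types. The genes most like each member, by Pearson correlation of log2 CPM over 10 samples among the 8847 genes that averaged 10 CPM or more, were Nsd2 and Lasp1 for Mmp9 (0.999 and 0.998), Sel1l3 and Arg1 for Mmp12, Pltp and Clip2 for Mmp13, Pdpn and Errfi1 for Mmp14, Gdpd5 and Trip10 for Timp1, and Il10 and Pltp for Timp2. The likeness was lower for Mmp19 (Ap2a2, 0.977) and Mmp25 (Sun2, 0.975), which differed least between TAM and MDSC. The points share their libraries and the cell type, and Mmp2 and Timp3 had too few reads for this measure.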

How the data were processed

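RNA was sequenced from 6 TAM and 4 MDSC samples, which were grouped by cell type and genotype as their titles give them. Per the methods and the submitters' processing notes, the authors made stranded poly(A) libraries, trimmed paired reads with cutadapt 2.5, aligned them to GRCm38 with STAR 2.7.3a and counted them per Ensembl gene with featureCounts of Subread 1.6.2. The authors deposited raw counts, whole numbers of reads per gene that are not normalized. The strand setting, and how multi-mapped reads were treated, are not given in the sources used here. Another deposited table, with values normalized within each cell type, was not used here.

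Counts were tested in R 4.3.3 with edgeR 4.0.16 (filterByExpr with a minimum count of 10, TMM factors, quasi-likelihood F test, Benjamini-Hochberg adjustment over all genes tested, called at an adjusted p under 0.05). SE was taken as the absolute log2 fold change divided by the square root of the F statistic, and is not a fitted standard error. It can understate the error where a group has few reads. The procedure was also run on simulated counts with few changed genes and the same spread for all genes. In TAM 50.2% of genes were called, so that run does not check the scaling or the calls there. Genotypes were compared within each cell type without covariates, the interaction was fitted over all 10 samples as 4 group means, and TAM were compared with MDSC in Shp2f/f samples. CPM used TMM factors within each cell type, with their geometric means set from all 10 libraries. Exon lengths and overlaps came from GENCODE for GRCm38 (99.67% of identifiers matched). Replicates differed by more than sampling noise (chi-square per degree of freedom 4.46 or more), so none was a repeat deposit.

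The members and the gene lists were chosen with earlier results of these data known, so they give no independent support. Named were all members, Ptpn11 and Lyz2, up to 3 rises and 3 falls per list (called in TAM, averaging 10 CPM or more there), and the 2 genes most like each member. Alternatives were DESeq2 size factors, total-count scaling, the DESeq2 1.42.0 Wald test, other filters, a replicate block, leaving out each sample, a fit of all samples and limma 3.58.1 voom. The replicate numbers were not taken to pair samples. Same-numbered TAM samples had correlations of their deviations of -0.13, 0.04 and 0.02. Same-numbered MDSC samples had 0.29, so the fit with a replicate block is also given for MDSC.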

Additional observations from a re-analysis of the deposited data

Results flagged for a closer look

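For 5 members the test of the interaction found that the genotype effect differed between TAM and MDSC (edgeR quasi-likelihood, adjusted p under 0.05). The fit used 1 spread for both cell types. Of all 16581 genes tested, 12.2% were called higher and 12.7% lower. The values, as log2 effect in TAM minus log2 effect in MDSC, were -2.01 for Mmp9, 1.54 for Mmp19, -0.97 for Mmp25, 0.95 for Mmp12 and -4.81 for Timp3. For Mmp9 and Mmp19 the effect had opposite signs in the cell types, and the call was kept in all 17 alternatives. Mmp12 lost its call in 12 of them, Timp3 in 11 and Mmp25 in 8. Leaving out MDSC Shp2f/fLysMcre replicate 2, the library with mesenchymal transcripts, moved Timp3 to -0.79. The neutrophil and macrophage marker sums also moved with genotype in MDSC, and their part was not tested.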

How the results depend on the processing

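In TAM, 8 members were called, and 7 or 8 in every alternative except the fit of all 10 samples, where 5 were called. Mmp9, Mmp12, Mmp13, Mmp19 and Timp2 kept their direction and call in each TAM alternative. With total-count scaling Mmp14 and Timp1 changed sign (-0.018 and -0.0063, neither called), the DESeq2 Wald test added Mmp14 (0.09), and Timp3 lost its call under the DESeq2 Wald test and with no filter on low counts. In MDSC, 1 member was called, against 3 with the DESeq2 Wald test, 4 with the fit of all 10 samples, and 0 with no filter on low counts, where edgeR called 130 of 27261 genes. The interaction count of 5 became 3 with voom and weights per cell type, which do not assume the same spread in TAM and MDSC. The protease to inhibitor ratio in TAM moved from -0.84 to -0.78 with sums of CPM.

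The replicate number as a block gave 7 called members in TAM (Timp3 lost), 4 in MDSC (Mmp2, Mmp9 and Mmp25 added), 3 in the interaction (Mmp12 and Timp3 lost) and 9 between the cell types. In MDSC same-numbered samples had a correlation of deviations of 0.29, and TAM samples did not all correlate best with their own number, so no pairing was assumed.

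Leaving out 1 sample at a time gave 7 to 8 called members in TAM, 0 to 5 in MDSC, 2 to 7 in the interaction and 9 to 10 between the cell types. MDSC effects ranged from -1.44 to 5.52 for Mmp2, -0.40 to 1.10 for Mmp14, -0.78 to 0.10 for Timp1 and -0.069 to 0.072 for Timp2. Interaction values ranged from -4.73 to 2.26 for Mmp2, -0.46 to 0.18 for Mmp13, -1.02 to 0.51 for Mmp14 and -0.0094 to 0.91 for Timp1, and the TAM minus MDSC difference of Mmp25 from -0.33 to 0.0015. The MDSC and interaction extremes of Mmp2, Mmp14 and Timp1 came from leaving out 1 or the other Shp2f/fLysMcre MDSC library. With either Shp2f/f MDSC sample left out, 1 gene of the whole table was called in MDSC. Fits with a lone sample in a group assume that it varies like the others. The cause of these changes was not tested. With 2 MDSC samples per genotype and 41 to 102 Mmp2 reads or 20 to 58 Timp3 reads per TAM library, these genes were the least precise.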
